A study of Mus musculus with 12 samples.

Results

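In NIH 3T3 cells, 9 genes were followed. They were 5 members of the CCN family (Ccn1, Ccn2, Ccn3, Ccn4 and Ccn5) and 4 genes known as targets of the co-activator YAP that also include regulators of its pathway (Ankrd1, Amotl2, Lats2 and Ajuba). These 9 genes were chosen by name and matched to Ensembl identifiers, and all 9 were found among the 49671 genes listed in each library. NIH 3T3 is an immortalized mouse fibroblast line, and the study asked how loss of Lap2, a nuclear lamina-associated protein made from the Tmpo gene, alters gene expression. Cells received control siRNA or an siRNA against all Lap2 isoforms, and were either left in medium with 0.3% FBS (serum-starved) or given 15% FBS for 45 min (serum-stimulated). The 4 groups held 3 libraries each, 12 in all, made from total RNA after removal of ribosomal RNA. Lap2 was depleted with 1 siRNA sequence, so effects on its target and on other transcripts that it may bind cannot be told apart. The labels give 3 replicates per group without saying whether these came from separate cultures, so p-values measure the spread between these libraries, which may be technical.

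CCN proteins are secreted, cysteine-rich proteins that sit in the matrix around cells and act through integrins, syndecans and low-density lipoprotein receptor-related proteins. Ccn1 (also Cyr61) and Ccn2 (also Ctgf, connective tissue growth factor) are classical immediate early genes of fibroblasts, switched on within minutes by serum and by mechanical tension. In the Hippo pathway the kinases Stk3 and Stk4 activate Lats1 and Lats2, which phosphorylate YAP and TAZ (gene Wwtr1) and keep them out of the nucleus. Nuclear YAP and TAZ bind TEAD factors at their target genes, and serum also acts on many of these genes through SRF and AP-1.

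Total counts per library ranged from 18026298 to 26265253. Values below are normalized counts, that is, counts scaled by the TMM-adjusted size of their library to the average size over the 12. A gene was called at an adjusted p under 0.05 in the quasi-likelihood test of edgeR, with adjustment by Benjamini and Hochberg over all 18668 genes tested. All 9 genes passed the filter on low counts.

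The labels held for the siRNA target. Tmpo stood at 2775, 2805 and 2885 normalized counts with control siRNA in 0.3% FBS and at 982, 1175 and 1093 with Lap2 siRNA. In 15% FBS, Tmpo stood at 3264, 3243 and 3019 with control siRNA and at 767, 745 and 607 with Lap2 siRNA. The groups did not overlap in either condition, and the mean with Lap2 siRNA was 38.4% of control in 0.3% FBS and 22.2% in 15% FBS. Gapdh, a glycolytic enzyme often used as a reference, lay between 14155 and 17086 normalized counts in all 12 libraries. The cell type label was checked against marker genes. All 10 fibroblast markers were found in every library, the collagens Col1a1, Col1a2 and Col3a1 and fibronectin (Fn1) with the most counts on average over the 12, whereas no epithelial, endothelial, leukocyte, skeletal muscle or adipocyte marker exceeded 54 counts in any library (the leukocyte list, led by Cd68), and Myod1, Myog, Ckm, Krt18, Plin1 and Cd3e were at 0 in all 12.

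Promoter sequence was available for 5 of the 9 genes in the RefSeq table used (GRCm38.p6, 6 promoters from 250 bases before to 50 bases after the start site), namely Ccn1, Ankrd1, Amotl2, Lats2 and Ajuba. The word GGAATG, the core of the element bound by TEAD factors, was searched on both strands (its reverse complement is CATTCC). All 5 genes, in 5 of their 6 promoters, held it, and 14.7% of the 32851 promoters in the table did. The stretches around the words upstream of the start site are shown because these promoters share the word; capitals mark it, and each stretch is written 5′ to 3′ on the strand of its gene.

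Ccn1, chr3:145650063-145650108, minus strand: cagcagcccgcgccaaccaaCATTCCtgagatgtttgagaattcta
Ajuba, chr14:54577800-54577867, minus strand: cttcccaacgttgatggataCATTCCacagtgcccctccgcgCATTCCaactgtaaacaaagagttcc
Amotl2, chr9:102717727-102717756, plus strand: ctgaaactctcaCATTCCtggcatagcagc
Ankrd1 distal, chr19:36120037-36120066, minus strand: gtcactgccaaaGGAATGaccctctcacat
Ankrd1 proximal, chr19:36119950-36119979, minus strand: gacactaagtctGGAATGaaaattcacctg

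Counted from the start site, the word began at base -103 in Ccn1 and at base -65 in Amotl2. Ajuba held it at bases -186 and -164 and Ankrd1 at bases -210 and -123. In Lats2 it began at base 5 after the start site of 1 of its 2 promoters. The Amotl2 and Ankrd1 stretches lie in exons that GENCODE M21 gives to other transcripts of these genes, while the Ccn1 and Ajuba stretches lie upstream of the annotated genes. None of the 6 promoters held the SRF-binding CArG box, TGANTCA (AP-1) or TGACGTCA (CRE), which 1.63%, 7.81% and 1.79% of all promoters held. A match is a description of the sequence and was not tested as a binding site.

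Serum stimulation of cells with control siRNA raised 7 of the 9 genes and lowered none, where 29.5% of all genes tested were called (15.6% higher, 13.9% lower). Ccn1 and Ccn2 rose by more than 100-fold and Ankrd1 by 7.17-fold, while Ccn4, Amotl2, Lats2 and Ajuba rose by less than 2-fold. Ccn3 and Ccn5 were not called.

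Ccn1 (ENSMUSG00000028195, mm10 chr3:145646976-145649981, minus strand) encodes a matricellular ligand of integrins. In cells with control siRNA it stood at 382, 249.5 and 299 normalized counts in 0.3% FBS and at 71221, 74622 and 76002 in 15% FBS. Lap2-depleted cells gave 857, 962 and 885 in 0.3% FBS and 58334, 53142 and 49113 in 15% FBS. The 4 groups fell in an order with no overlap between neighbours, from starved control through starved and stimulated Lap2-depleted cells to stimulated control. The log2 fold change on stimulation was 7.90 ± 0.11 (SE, adjusted p = 4.2e-33) with control siRNA, a 239-fold rise. With Lap2 siRNA it was 5.89 ± 0.099 (adjusted p = 7.5e-31), a 59.4-fold rise.

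Ccn2 (ENSMUSG00000019997, chr10:24595442-24598683, plus strand) encodes a profibrotic relative of Ccn1. In cells with control siRNA it stood at 500.5, 306 and 372 normalized counts in 0.3% FBS and at 63462, 64766 and 67433 in 15% FBS. In Lap2-depleted cells it stood at 2009.9, 2010.8 and 1888 in 0.3% FBS and at 18889, 16876 and 18153 in 15% FBS. Here too no group overlapped another, and the order was that of Ccn1. Stimulation gave a log2 fold change of 7.38 ± 0.11 (adjusted p = 4.8e-32) with control siRNA, a 166-fold rise. With Lap2 siRNA the rise was 9.12-fold (log2 fold change 3.19 ± 0.091, adjusted p = 2.8e-24). The antisense gene Gm15270 overlaps Ccn2, and whether counting used the strand of the reads is not given in the sources used here. Its counts had medians of 52 and 244 in starved and stimulated control cells and of 81 and 102 in starved and stimulated Lap2-depleted cells, and reached 734 in 1 stimulated control library, against 60467 to 71522 for Ccn2 in that group.

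Ankrd1 (ENSMUSG00000024803, chr19:36111965-36119844, minus strand) encodes an ankyrin repeat protein of the nucleus and sarcomere. In cells with control siRNA it stood at 237, 174 and 198 normalized counts in 0.3% FBS and at 1519.1, 1519.3 and 1323 in 15% FBS. The libraries with Lap2 siRNA gave 308, 303 and 340 in 0.3% FBS and 638, 732 and 740.1 in 15% FBS. It followed the same order as Ccn1 and Ccn2, again with no overlap between neighbouring groups. Stimulation of control cells gave a log2 fold change of 2.84 ± 0.10 (adjusted p = 8.3e-22), and that of Lap2-depleted cells 1.15 ± 0.098 (adjusted p = 1.7e-11), the latter a 2.22-fold rise.

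**Figure D1:**
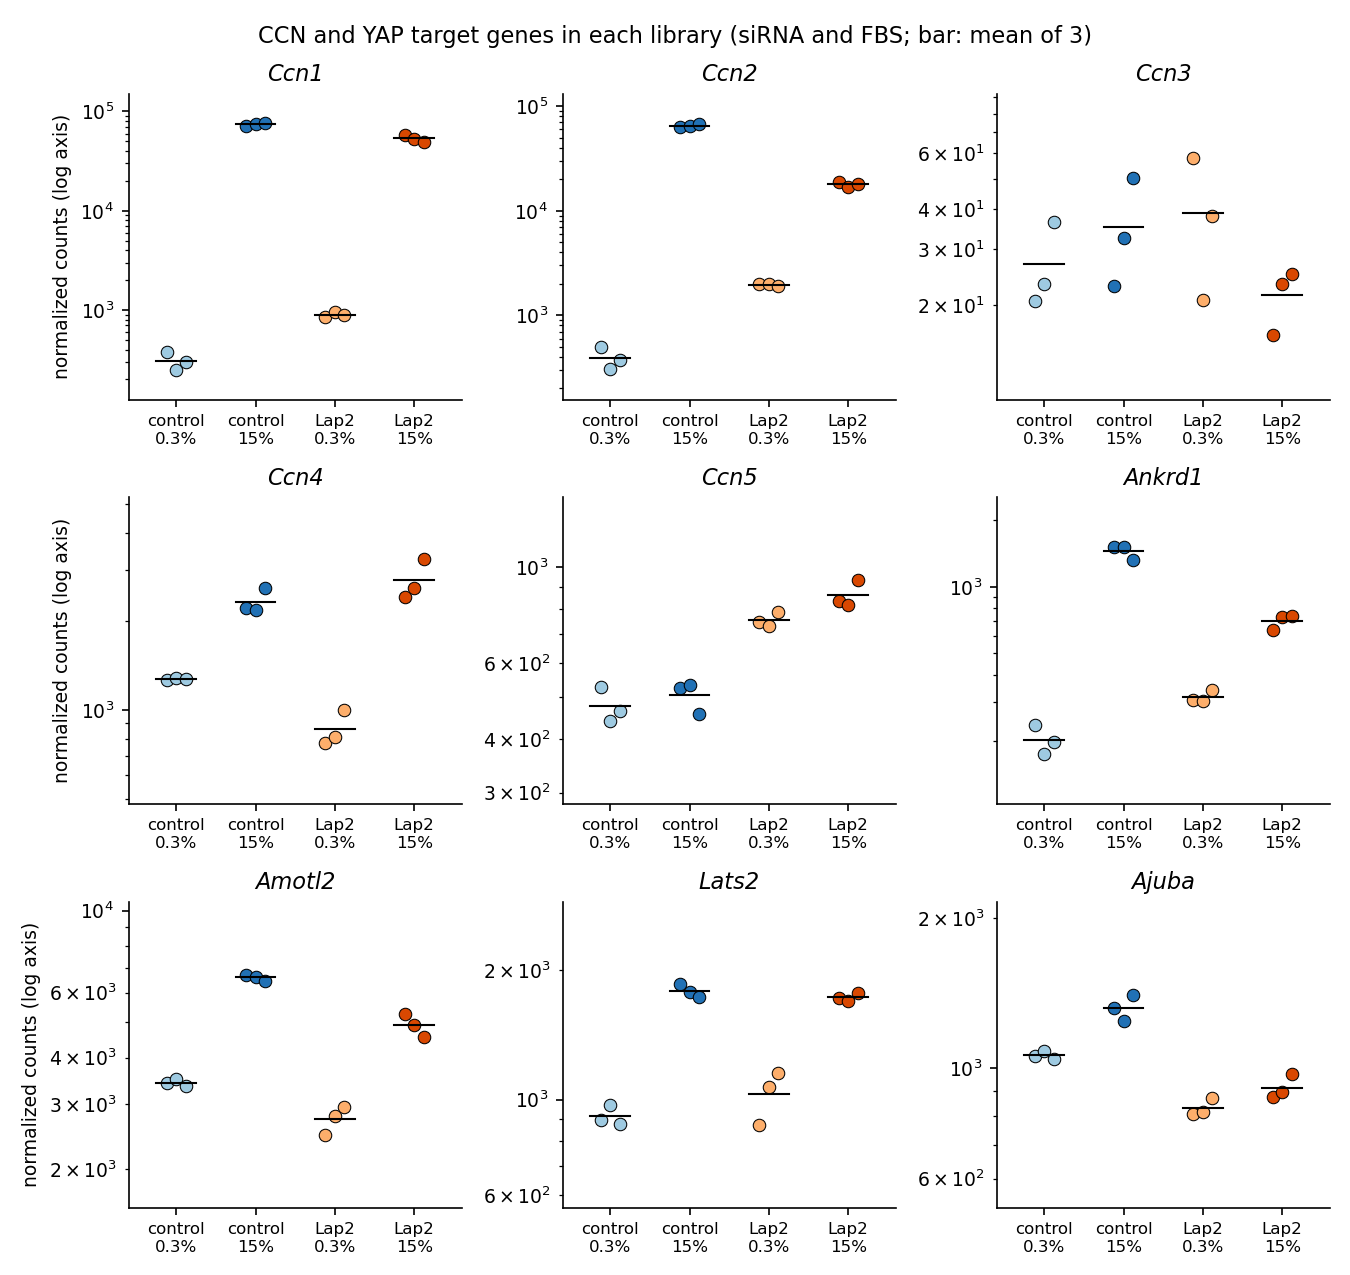
Normalized counts (log axis, a separate scale in each panel) of the 9 genes in each of the 12 libraries; points are libraries, bars the mean of 3, and the x axis gives the siRNA and the FBS concentration. Ccn1, Ccn2 and Ankrd1 show 4 separate levels in the same order, Ccn4 is lowest in starved Lap2-depleted cells (774 to 998), and Ccn3 overlaps in all groups.

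The remaining CCN genes showed other orders of the groups. Ccn4 (also Wisp1, ENSMUSG00000005124, chr15:66891320-66923201, plus strand), a secreted member known as a target of Wnt signalling, stood at 1266, 1284 and 1273 normalized counts in starved control cells and at 2224, 2185 and 2591 after stimulation. With Lap2 siRNA it stood at 774, 807 and 998 in 0.3% FBS and at 2427, 2604 and 3269 in 15% FBS. The starved groups lay apart from each other and from both stimulated groups, and the stimulated groups overlapped. Its response to serum was larger with Lap2 siRNA, at a log2 fold change of 1.69 ± 0.094 (adjusted p = 3.9e-16), than with control siRNA, at 0.87 ± 0.092 (adjusted p = 1.8e-09).

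Ccn5 (also Wisp2, ENSMUSG00000027656, chr2:163820861-163833146, plus strand), which lacks the C-terminal domain of the other members, was higher with Lap2 siRNA in both conditions. In cells with control siRNA it stood at 528, 440.1 and 464 normalized counts in 0.3% FBS and at 524, 534 and 456 in 15% FBS. Lap2-depleted cells gave 746, 729 and 787 in 0.3% FBS and 837, 819 and 933 in 15% FBS. Both control groups overlapped, and all 6 libraries with Lap2 siRNA lay above all 6 with control siRNA. Neither serum response was called (log2 fold change 0.08 ± 0.090, adjusted p = 0.55, and 0.20 ± 0.085, adjusted p = 0.078).

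Ccn3 (also Nov, ENSMUSG00000037362, chr15:54745702-54754039, plus strand) was scarce, with 14 to 63 raw counts in any library. Its 4 groups overlapped throughout, from 21.5 ± 4.73 normalized counts (SD, n = 3) in stimulated Lap2-depleted cells to 38.9 ± 18.5 in starved Lap2-depleted cells. No contrast was called for Ccn3 with all 12 libraries and these settings, and a difference of the size of its standard errors (0.34 to 0.49 on the log2 scale) was not detectable at this depth. Its value for stimulation with Lap2 siRNA (log2 fold change -0.85 ± 0.35, adjusted p = 0.062) lay near the threshold and was called at -1.16 (adjusted p = 0.0095) without replicate 2 of the starved Lap2-depleted cells, and under 4 other settings (total-count or upper-quartile scaling, no filter on low counts, or a replicate block) at -0.86 to -1.08. With each library left out in turn, this value ranged from -1.16 to -0.46 (adjusted p up to 0.4).

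Amotl2, Lats2 and Ajuba encode negative regulators and partners of the YAP pathway. Amotl2 (angiomotin-like 2, which binds YAP at cell junctions, ENSMUSG00000032531, chr9:102716672-102733418) stood at 3409, 3501 and 3353 normalized counts in starved and at 6709, 6621 and 6441 in stimulated control cells. In Lap2-depleted cells it stood at 2474, 2784 and 2949 in 0.3% FBS and at 5245, 4898 and 4550 in 15% FBS. No group overlapped another, and stimulation raised it by a log2 fold change of 0.95 ± 0.067 (adjusted p = 1.3e-13) with control siRNA and of 0.84 ± 0.067 (adjusted p = 4.1e-12) with Lap2 siRNA.

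Lats2, the kinase that phosphorylates YAP (ENSMUSG00000021959, chr14:57642077-57758388 in the files), stood at 895, 971 and 879 normalized counts in starved and at 1852, 1779 and 1734 in stimulated control cells. The libraries with Lap2 siRNA gave 874, 1070.4 and 1152 in 0.3% FBS and 1725, 1691 and 1766 in 15% FBS. The libraries separated by serum and overlapped between the siRNAs. Stimulation raised it by a log2 fold change of 0.97 ± 0.079 (adjusted p = 5.3e-12) in control and of 0.74 ± 0.079 (adjusted p = 2.3e-09) in Lap2-depleted cells. In the coordinates of the files its span overlaps the end of Xpo4 on the same strand, which had 302 to 524 counts per library.

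Ajuba, a LIM protein that restrains the LATS kinases (ENSMUSG00000022178, chr14:54567469-54577661 in the files), stood at 1059.9, 1081 and 1042 normalized counts in starved and at 1323, 1242 and 1402 in stimulated control cells. With Lap2 siRNA it stood at 808, 815 and 872 in 0.3% FBS and at 873, 896 and 971 in 15% FBS. All 6 libraries with Lap2 siRNA lay below all 6 with control siRNA. Stimulation raised Ajuba with control siRNA (log2 fold change 0.32 ± 0.072, adjusted p = 6.7e-04), a call that was lost when libraries were scaled to their total counts (0.11, adjusted p = 0.24). With Lap2 siRNA the value was 0.14 ± 0.074 (adjusted p = 0.17).

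With Lap2 siRNA, stimulation raised 6 of the 9 genes and lowered none, where 33.2% of all genes were called (18.3% higher, 14.9% lower). These were the genes raised with control siRNA except Ajuba. The values of the starved and stimulated libraries did not overlap for 7 genes with control siRNA and for 8 with Lap2 siRNA, higher after stimulation in each. Over all genes 21.3% did not overlap and were higher and 20.7% lower with control siRNA (42% in all), and 22.6% and 19.1% with Lap2 siRNA (41.7% in all). The median log2 fold change of the 9 genes was 0.95 in the first response (control siRNA) and 0.84 in the second (Lap2 siRNA), beside medians of -0.01 and 0.00 over all genes tested.

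The difference between the serum responses was tested as the interaction of siRNA and serum. Of the 9 genes 4 were called, where 13.6% of all genes were called (7.09% higher, 6.51% lower). The split of all called genes, 1324 higher and 1216 lower, moved with single libraries. It was 1556 and 1973 without replicate 1 of the starved Lap2-depleted cells. Without replicate 2 of the starved control cells it was 852 and 1151. The response of Ccn2 with Lap2 siRNA differed from that with control siRNA by -4.19 ± 0.13 on the log2 scale (adjusted p = 1.7e-21), an 18.2-fold smaller fold change. The response of Ccn1 differed by -2.01 ± 0.13 (adjusted p = 3.8e-13), a 4.03-fold smaller fold change, and that of Ankrd1 by -1.69 ± 0.14 (adjusted p = 1.4e-10). Ccn4 went the other way, with a response larger by 0.82 ± 0.13 (adjusted p = 2.6e-05). The values were -0.11 ± 0.094 for Amotl2, -0.22 ± 0.11 for Lats2, -0.18 ± 0.10 for Ajuba, 0.11 ± 0.12 for Ccn5 and -1.24 ± 0.49 for Ccn3, with adjusted p from 0.099 to 0.64. For Lats2 the difference was called at -0.36 (adjusted p = 0.0033) without replicate 1 of the starved Lap2-depleted cells, and for Ccn3 under 3 settings, at -1.56 (adjusted p = 0.025) without replicate 2 of that group, at -1.48 (adjusted p = 0.048) without replicate 1 of the stimulated control cells and at -1.24 (adjusted p = 0.042) with no filter on low counts. The starved and the stimulated levels both enter this difference, and each was compared between the siRNAs. Depletion was not equal in the serum conditions, with Tmpo at 38.4% of control in 0.3% FBS and 22.2% in 15% FBS. The part of this inequality in the differences was not tested.

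**Figure D2:**
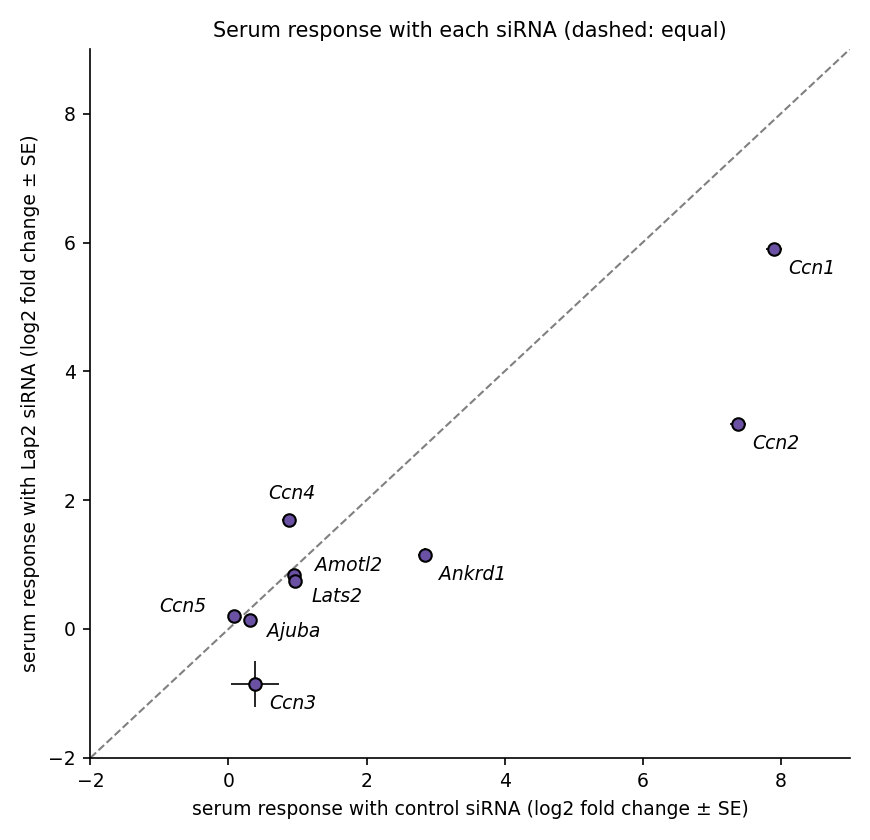
Log2 fold change on serum stimulation with Lap2 siRNA (y axis) against control siRNA (x axis) for the 9 genes, with standard errors and a dashed line of equal responses. Ccn1 (7.90 and 5.89), Ccn2 (7.38 and 3.19) and Ankrd1 (2.84 and 1.15) lie below the line and Ccn4 (0.87 and 1.69) above it.

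In serum-starved cells, Lap2 siRNA was accompanied by higher levels of 4 genes (Ccn1, Ccn2, Ccn5 and Ankrd1) and lower levels of 3 (Ccn4, Amotl2 and Ajuba), where 36.5% of all genes were called (17.8% higher, 18.6% lower). Ccn2 was 5.03-fold higher (log2 fold change 2.33 ± 0.098, adjusted p = 1.2e-18) and Ccn1 2.91-fold higher (1.54 ± 0.098, adjusted p = 1.8e-14). Ccn5 and Ankrd1 were higher by 0.66 ± 0.088 (adjusted p = 2.1e-07) and 0.64 ± 0.11 (adjusted p = 1.3e-05) on the log2 scale. Ccn4 was lower, with a log2 fold change of -0.57 ± 0.095 (adjusted p = 1e-05), as were Amotl2 at -0.32 ± 0.067 (adjusted p = 2.1e-04) and Ajuba at -0.35 ± 0.073 (adjusted p = 2e-04). In all 7 the groups did not overlap (4 higher, 3 lower), beside 21.3% of all genes higher and 22.1% lower (43.4% in either direction). Lats2 gave 0.17 ± 0.080 (adjusted p = 0.1) and was called at 0.29 (adjusted p = 5.6e-04) without replicate 1 of the starved Lap2-depleted cells and at 0.24 (adjusted p = 0.043) without replicate 2 of the starved control cells, and with all 12 libraries at 0.28 (adjusted p = 0.0055) when scaled to total counts. Over all fits that left out 1 library, Lats2 ranged from 0.094 to 0.29 (adjusted p up to 0.44). Ccn3 gave 0.56 ± 0.34 (adjusted p = 0.21) and was called at 0.87 (adjusted p = 0.044) without replicate 2 of the starved Lap2-depleted cells. With each library left out in turn, the value of Ccn3 ranged from 0.16 to 0.87 (adjusted p up to 0.78).

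In serum-stimulated cells, 5 genes were lower with Lap2 siRNA (Ccn1, Ccn2, Ankrd1, Amotl2 and Ajuba) and 2 were higher (Ccn4 and Ccn5), where 23.4% of all genes were called (11.4% higher, 12.1% lower). Ccn2 was 3.63-fold lower (log2 fold change -1.86 ± 0.085, adjusted p = 5.7e-17) and Ankrd1 2.07-fold lower (-1.05 ± 0.089, adjusted p = 5.7e-11). Ccn1 was 1.38-fold lower (-0.47 ± 0.079, adjusted p = 2.5e-05), Ajuba 1.45-fold (-0.53 ± 0.072, adjusted p = 8.1e-07) and Amotl2 1.35-fold (-0.43 ± 0.066, adjusted p = 6.5e-06). Ccn5 was 1.71-fold higher (0.77 ± 0.087, adjusted p = 2.4e-08). The call of Ccn4 (0.25 ± 0.089, adjusted p = 0.041) was weak: its groups overlapped, DESeq2 gave an adjusted p of 0.068, and without replicate 3 of the stimulated Lap2-depleted cells the value was 0.098 (adjusted p = 0.52). It was also lost with either stricter filter on low counts and without each of 5 other libraries (0.20 to 0.24, adjusted p 0.061 to 0.19), namely any one of the 3 starved control libraries and replicate 1 or 2 of the stimulated control cells. The siRNA groups did not overlap for 5 genes that were lower and 1 that was higher, beside 18.5% and 20.3% of all genes (38.8% in either direction). Lats2 gave -0.05 ± 0.077 (adjusted p = 0.72) and Ccn3 -0.68 ± 0.36 (adjusted p = 0.19). With each library left out in turn, Ccn3 ranged from -0.93 to -0.35 (adjusted p 0.084 to 0.63).

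**Figure D3:**
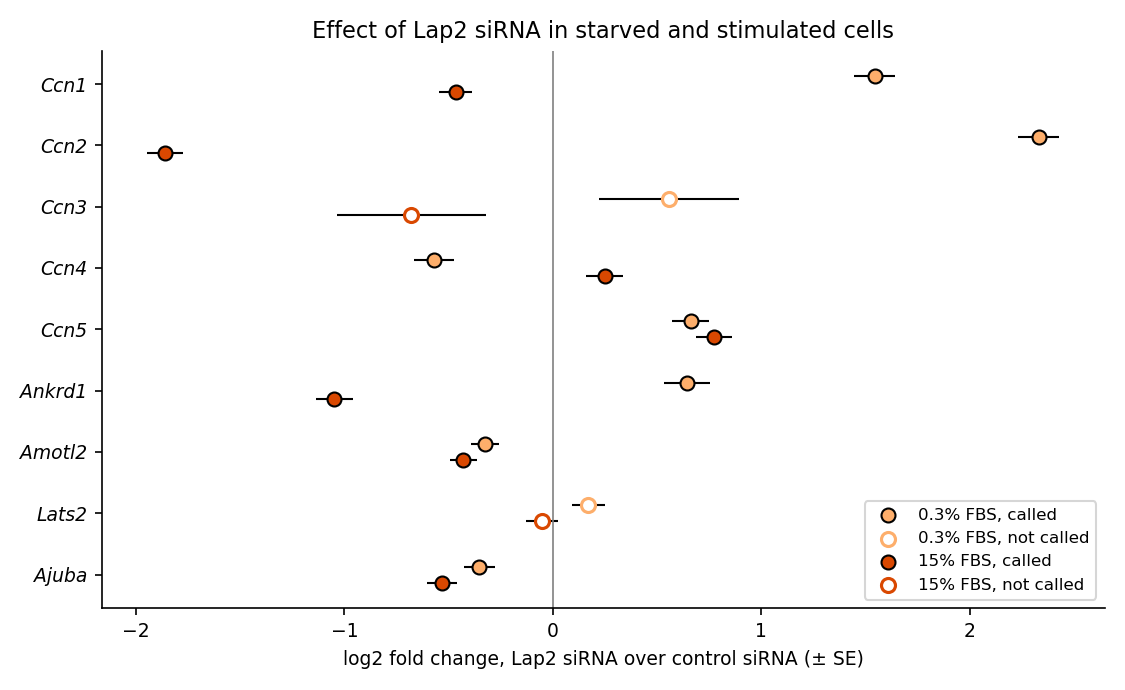
Log2 fold change of Lap2 siRNA over control siRNA with standard errors for the 9 genes in 0.3% FBS and 15% FBS; filled points were called at an adjusted p under 0.05 and open points were not. Ccn1, Ccn2 and Ankrd1 lie above 0 in starved and below 0 in stimulated cells (2.33 and -1.86 for Ccn2), Ccn4 does the reverse, Ccn5 is above 0 in both and Amotl2 and Ajuba are below 0 in both.

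The 9 genes fell into several patterns. In all, 3 (Ccn1, Ccn2 and Ankrd1) were higher in starved and lower in stimulated Lap2-depleted cells, 1 (Ccn4) was lower and then higher, 1 (Ccn5) was higher in both, 2 (Amotl2 and Ajuba) were lower in both and 2 (Ccn3 and Lats2) were not called in either. Over all genes tested, 0.557%, 0.38%, 7.13%, 8.76% and 56.9% showed these patterns in that order. The place of Ccn4 rests on its weak call in 15% FBS, which was lost under 9 alternatives, DESeq2 (adjusted p = 0.068) among them, and leaves it as lower in 0.3% FBS and not called in 15% FBS, a pattern of 9.5% of all genes. The starved level as a share of the stimulated level gives both ends at once. For Ccn1 it was 0.419% in control and 1.68% in Lap2-depleted cells, for Ccn2 0.602% and 11.0%, and for Ankrd1 14.0% and 45.0%. For Ccn4 the share fell from 54.6% to 31.1%. The mean level of Ccn1 on stimulation with Lap2 siRNA was 72.4% of control, that of Ankrd1 48.4% and that of Ccn2 27.6%.

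The CCN genes were then compared with each other within libraries, on a per-length scale (RPKM computed with exon lengths and TMM-scaled library sizes). This comparison was chosen after seeing the data. The exon lengths are those of GENCODE M21, in which the spans of Ankrd1, Lats2 and Ajuba differ from those in the files, so levels per length of these 3 genes may not match the models that were counted. The summed level of the 5 CCN genes on this scale was 36.9 ± 4.20 (SD, n = 3) in starved control cells, 80.4 ± 0.894 in starved Lap2-depleted cells, 2850.2 ± 90.2 in stimulated control cells and 1600.02 ± 113 in stimulated Lap2-depleted cells. In starved control cells Ccn5 and Ccn4 held 32.0% ± 0.708 and 29.7% ± 3.51 of the sum, Ccn1 19.6% ± 1.98 and Ccn2 17.5% ± 2.39. In starved Lap2-depleted cells Ccn2 was the most abundant, with 40.6% ± 1.62, followed by Ccn1 with 26.3% ± 1.34, and Ccn4 held 9.11% ± 1.25. After stimulation Ccn1 and Ccn2 together took nearly all of the sum, at 60.9% ± 0.342 and 37.9% ± 0.322 with control siRNA and at 78.5% ± 1.64 and 18.6% ± 1.17 with Lap2 siRNA.

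The ratio of Ccn2 to Ccn1 on the per-length scale does not depend on how libraries are scaled to each other. It was 0.890 ± 0.0315 (SD, n = 3) in starved control cells and 1.55 ± 0.0968 in starved Lap2-depleted cells. In stimulated cells it was 0.622 ± 0.00875 without and 0.238 ± 0.0201 after Lap2 depletion. Ccn2 exceeded Ccn1 per length in starved Lap2-depleted cells and lay below it in the other groups, and no library of 1 group entered the range of another. On the log2 scale the ratio was higher with Lap2 siRNA by 0.80 ± 0.059 (SE) in 0.3% FBS and differed by -1.39 ± 0.070 in 15% FBS (2-sided exact permutation p = 0.1 for each, the smallest that 3 against 3 libraries allow). With lengths from the longest transcript the ratio was 1.02 in starved control cells, so that there the order of the genes depends on the length used, while the changes between groups do not.

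**Figure D4:**
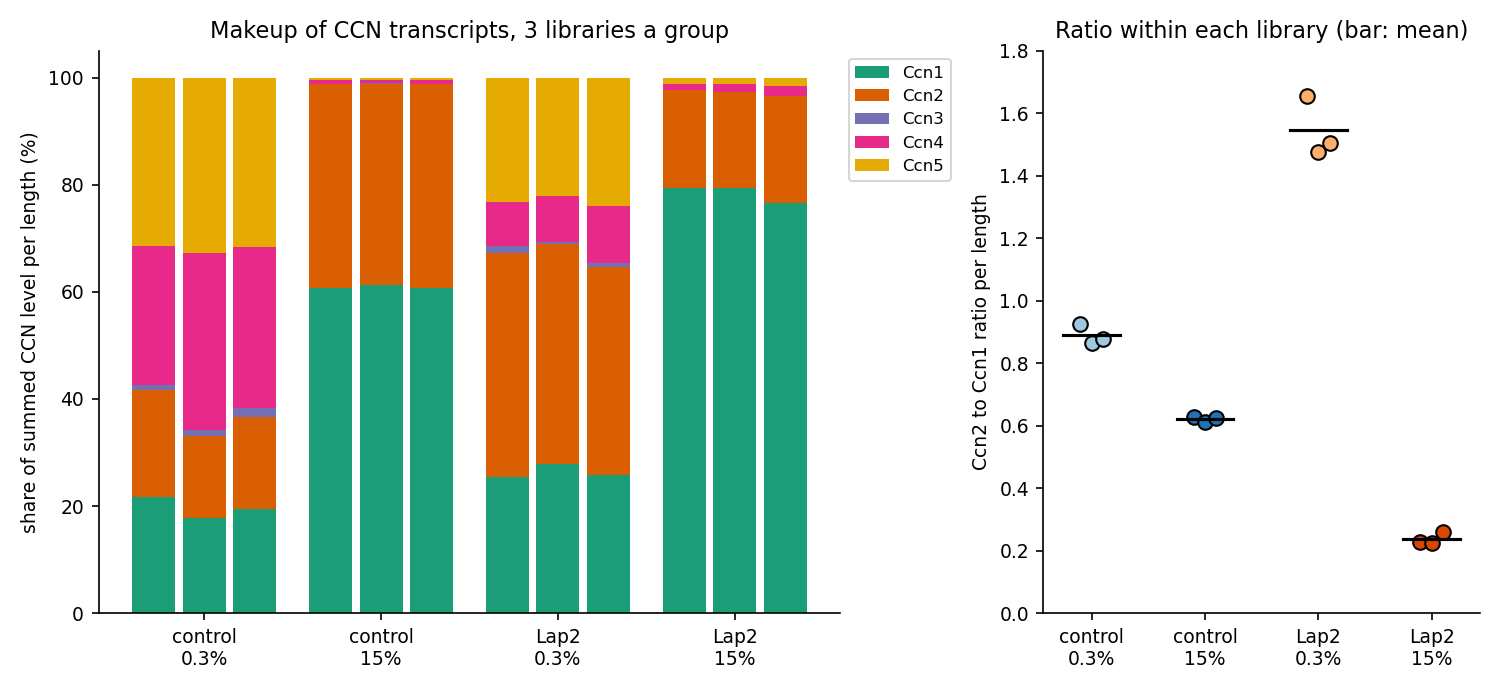
Left, share (%) of the summed CCN level per kilobase of exon held by each CCN gene in each library, 3 bars per group. Right, ratio of Ccn2 to Ccn1 per length in each library with the group mean as a bar, which is highest in starved Lap2-depleted cells (mean 1.55) and lowest in stimulated Lap2-depleted cells (mean 0.238).

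Among all 9 genes on the per-length scale, Amotl2 was the most abundant in starved control cells (25.8 ± 0.562) and Ccn3 the least (0.444 ± 0.142). Ccn2 led in starved Lap2-depleted cells (32.6 ± 1.17), and Ccn1 led in both stimulated groups (1736 ± 57.8 with control siRNA and 1257 ± 109 with Lap2 siRNA). Ankrd1 moved from 3.34 ± 0.525 to 23.9 ± 1.86 on stimulation with control siRNA and from 5.20 ± 0.332 to 11.6 ± 0.934 with Lap2 siRNA. With the length of its longest transcript these means were 4.77 and 34.1, and 7.43 and 16.5.

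Genes with the most similar pattern were ranked by Pearson's r of log2 CPM over the 12 libraries, among 10448 genes whose mean reached 100 normalized counts. As the libraries form 4 groups of 3, r mostly reads the 4 group means, and it is given as a description. For Ccn1 the nearest were Myc, the growth-promoting transcription factor (r = 0.999), Trib1, a pseudokinase (0.999), Cfap43, a cilia-associated protein (0.998), the immediate early transcription factor Egr2 (0.998) and Taf5l (0.998). For Ccn2 they were Zcchc2 (0.997), the serum- and glucocorticoid-regulated kinase Sgk1 (0.996), Tlnrd1 (0.995), the small GTPase Rhoj (0.992) and the centriole protein Stil (0.991). For Ankrd1 they were Kank1 (0.991), the intermediate filament protein nestin, Nes (0.989), the co-chaperone Bag2 (0.987), Ccn2 itself (0.987) and Eogt (0.986). Among the 9 genes, r was 0.97 between Ccn1 and Ccn2, 0.74 between Ccn2 and Ccn4 and -0.75 between Ccn5 and Ajuba.

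Other genes of the same biology were counted from lists. The shares of all genes given here and above include genes with few counts. With a stricter filter on low counts (filterByExpr of edgeR, 13987 genes), 40.4% and 44.9% were called for serum with control and Lap2 siRNA. For Lap2 siRNA 48.5% were called in 0.3% FBS and 32.4% in 15% FBS, and 19.1% for the difference between the serum responses. Of 17 further YAP and TAZ targets 15 were tested (Igfbp3 and Nt5e did not pass the filter). Serum raised 9 and lowered 1 with control siRNA, and raised 8 and lowered 1 with Lap2 siRNA, with medians of 0.24 and 0.36 on the log2 scale, beside 29.5% and 33.2% of all genes called and medians of -0.01 and 0.00. The largest rises were those of Nuak2, a stress-activated kinase (4.43 ± 0.10 with control siRNA and 3.75 ± 0.099 with Lap2 siRNA, adjusted p = 2.6e-27 and 3e-25), and F3, tissue factor (3.30 ± 0.078 and 3.20 ± 0.078, adjusted p = 7.8e-27 and 3.2e-26). The next largest change was that of the stress-inducible Gadd45a with control siRNA (1.35 ± 0.18, adjusted p = 3.2e-07) and that of Ccdc80, a matrix protein, with Lap2 siRNA (0.95 ± 0.081, adjusted p = 2e-11). Foxf2, a forkhead factor, was the gene lowered in both (-0.35 and -0.36). The count with control siRNA fell from 10 called to 5 when libraries were scaled to total counts, where 40.1% of all genes were called, and to 6 with upper-quartile scaling, where 32.5% were.

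With Lap2 siRNA 4 of the 15 targets were higher and 8 lower in 0.3% FBS (median log2 fold change -0.34). In 15% FBS 2 were higher and 9 lower (median -0.23). Of all genes 36.5% and 23.4% were called in these contrasts (48.5% and 32.4% with the stricter filter), with medians of 0.01 and 0.02. Tgfb2, a growth factor of the TGF-beta family, was higher in both (1.24 ± 0.13, adjusted p = 1.5e-09, and 0.81 ± 0.13, adjusted p = 7e-06). Foxf2 was also higher in both (0.97 ± 0.075, adjusted p = 2e-12, and 0.96 ± 0.077, adjusted p = 1.8e-11). Ccdc80 was lower in both (-0.98 ± 0.081, adjusted p = 9.9e-12, and -0.23 ± 0.078, adjusted p = 0.033), as was F3 (-0.63 ± 0.074, adjusted p = 2.1e-08, and -0.74 ± 0.071, adjusted p = 8.4e-10). Of the 15, the serum responses differed between the siRNAs for 3, beside 13.6% of all genes. These 3 are 20% of the targets, near the 19.1% of genes called with the stricter filter. Nuak2 (-0.68) and Gadd45a (-0.99) had a smaller and Ccdc80 (0.75) a larger response in Lap2-depleted cells. The count of 3 rose to 6 without replicate 1 of the starved Lap2-depleted cells, where 19.1% of all genes were called.

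All 29 listed Hippo pathway genes and effectors were tested. Serum raised 14 and lowered 1 (Stk4) with control siRNA and raised 19 and lowered 1 (Tead4) with Lap2 siRNA, beside 29.5% and 33.2% of all genes called in either direction. Vgll3, a TEAD cofactor, rose most with both (1.42 ± 0.077, adjusted p = 1.6e-16, and 2.05 ± 0.091, adjusted p = 6.7e-19). Frmd6, a FERM domain protein upstream of the kinases, followed with both (0.94 ± 0.075, adjusted p = 3.2e-12, and 1.15 ± 0.077, adjusted p = 4e-14). The next were Vgll4, a TEAD cofactor that competes with YAP, with control siRNA (0.79 ± 0.066, adjusted p = 8.6e-12) and the kinase Stk3 with Lap2 siRNA (1.07 ± 0.074, adjusted p = 1.2e-13). In Lap2-depleted cells 17 of the 29 were lower and 5 higher in 0.3% FBS (median -0.25), and 13 were lower and 2 higher in 15% FBS (median -0.13). Of all genes 18.6% were lower and 17.8% higher in 0.3% FBS (median 0.01), and 12.1% and 11.4% in 15% FBS (median 0.02). Yap1, which encodes YAP, was lower in both, with a log2 fold change of -0.69 ± 0.065 in 15% FBS (adjusted p = 5.3e-10). It stood at 2934, 3192 and 2803 normalized counts in starved control cells against 1829, 1869 and 1849.97 in starved Lap2-depleted cells, with no overlap, and its serum response was not called with either siRNA. Wwtr1, which encodes TAZ, was not called for Lap2 siRNA in either condition (0.12, adjusted p = 0.19, and -0.13, adjusted p = 0.22). Tead1, Tead2 and Tead3 were lower in both, Tead2 most in 0.3% FBS (-1.12 ± 0.064, adjusted p = 1.9e-15), whereas Tead4 was higher in 0.3% FBS (0.58, adjusted p = 5.6e-05) and not called in 15% FBS. Vgll3 showed the largest changes of the list, at -1.77 ± 0.092 (adjusted p = 1.5e-16) and -1.14 ± 0.077 (adjusted p = 3.1e-13). The atypical cadherin Fat4 came next in 0.3% FBS (-1.22 ± 0.098, adjusted p = 4.6e-12), and its relative Fat1 in 15% FBS (-0.77 ± 0.082, adjusted p = 6.5e-09). The serum responses of 7 of the 29 (24.1%) differed between the siRNAs, 5 larger and 2 smaller with Lap2 siRNA. Of all genes 13.6% were called, and 19.1% with the stricter filter, which is nearer to the share of the list. The largest differences were those of Fat4 (0.87 ± 0.14, adjusted p = 1.7e-05), Vgll3 (0.63 ± 0.12, adjusted p = 2.7e-04) and Tead4 (-0.61 ± 0.16, adjusted p = 0.0067). Without replicate 1 of the starved Lap2-depleted cells 11 of the 29 were called, where 19.1% of all genes were.

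Of 10 listed receptors of CCN proteins, 9 were tested (Itgam was at 0 in all 12 libraries). Serum raised 5 and lowered 1 with control siRNA, led by Itga5, the fibronectin receptor alpha chain (2.93 ± 0.077, adjusted p = 1.9e-25), and the heparan sulfate proteoglycan Sdc4 (2.32 ± 0.065, adjusted p = 1.1e-24). With Lap2 siRNA it raised 4 and lowered 1, led by Sdc4 (2.20 ± 0.065, adjusted p = 6.1e-24) and Itga5 (1.95 ± 0.075, adjusted p = 9.4e-21). Itgb1, the integrin beta 1 chain, came next with both (0.95 ± 0.057, adjusted p = 2e-15, and 0.98 ± 0.058, adjusted p = 1.4e-15). Of all genes 29.5% and 33.2% were called in these contrasts. In Lap2-depleted cells 4 receptors were higher and 4 lower in 0.3% FBS, and 2 were higher and 7 lower in 15% FBS (median -0.54), beside 36.5% and 23.4% of all genes called. Itgb3, which pairs with Itgav in a receptor of Ccn1 and Ccn2, was lower in both (-1.63 ± 0.12, adjusted p = 3.8e-13, and -1.48 ± 0.12, adjusted p = 8.7e-12), at 546, 577 and 552 normalized counts in starved control cells against 133, 222 and 187 in starved Lap2-depleted cells. The next largest changes in 0.3% FBS were those of the Wnt co-receptor Lrp6 (-0.67 ± 0.076, adjusted p = 1.2e-08) and Itgb1 (-0.61 ± 0.057, adjusted p = 1.9e-10), and in 15% FBS those of Itga5 (-0.70 ± 0.072, adjusted p = 3.5e-09) and the endocytic receptor Lrp1 (-0.58 ± 0.074, adjusted p = 2.2e-07). The serum responses of 5 of the 9 receptors differed between the siRNAs, beside 13.6% of all genes (19.1% with the stricter filter). The largest differences were those of Itga5 (-0.98 ± 0.10, adjusted p = 1.7e-08), Itgav (-0.58 ± 0.094, adjusted p = 2.7e-05) and Itga6 (-0.46 ± 0.12, adjusted p = 0.01), smaller responses with Lap2 siRNA. This count fell to 3 of 9 without replicate 2 of the starved control cells, where 10.9% of all genes were called, and without replicate 2 of the stimulated Lap2-depleted cells, where 10.8% were. The sixth CCN gene, Ccn6, did not pass the filter on low counts.

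**Figure D5:**
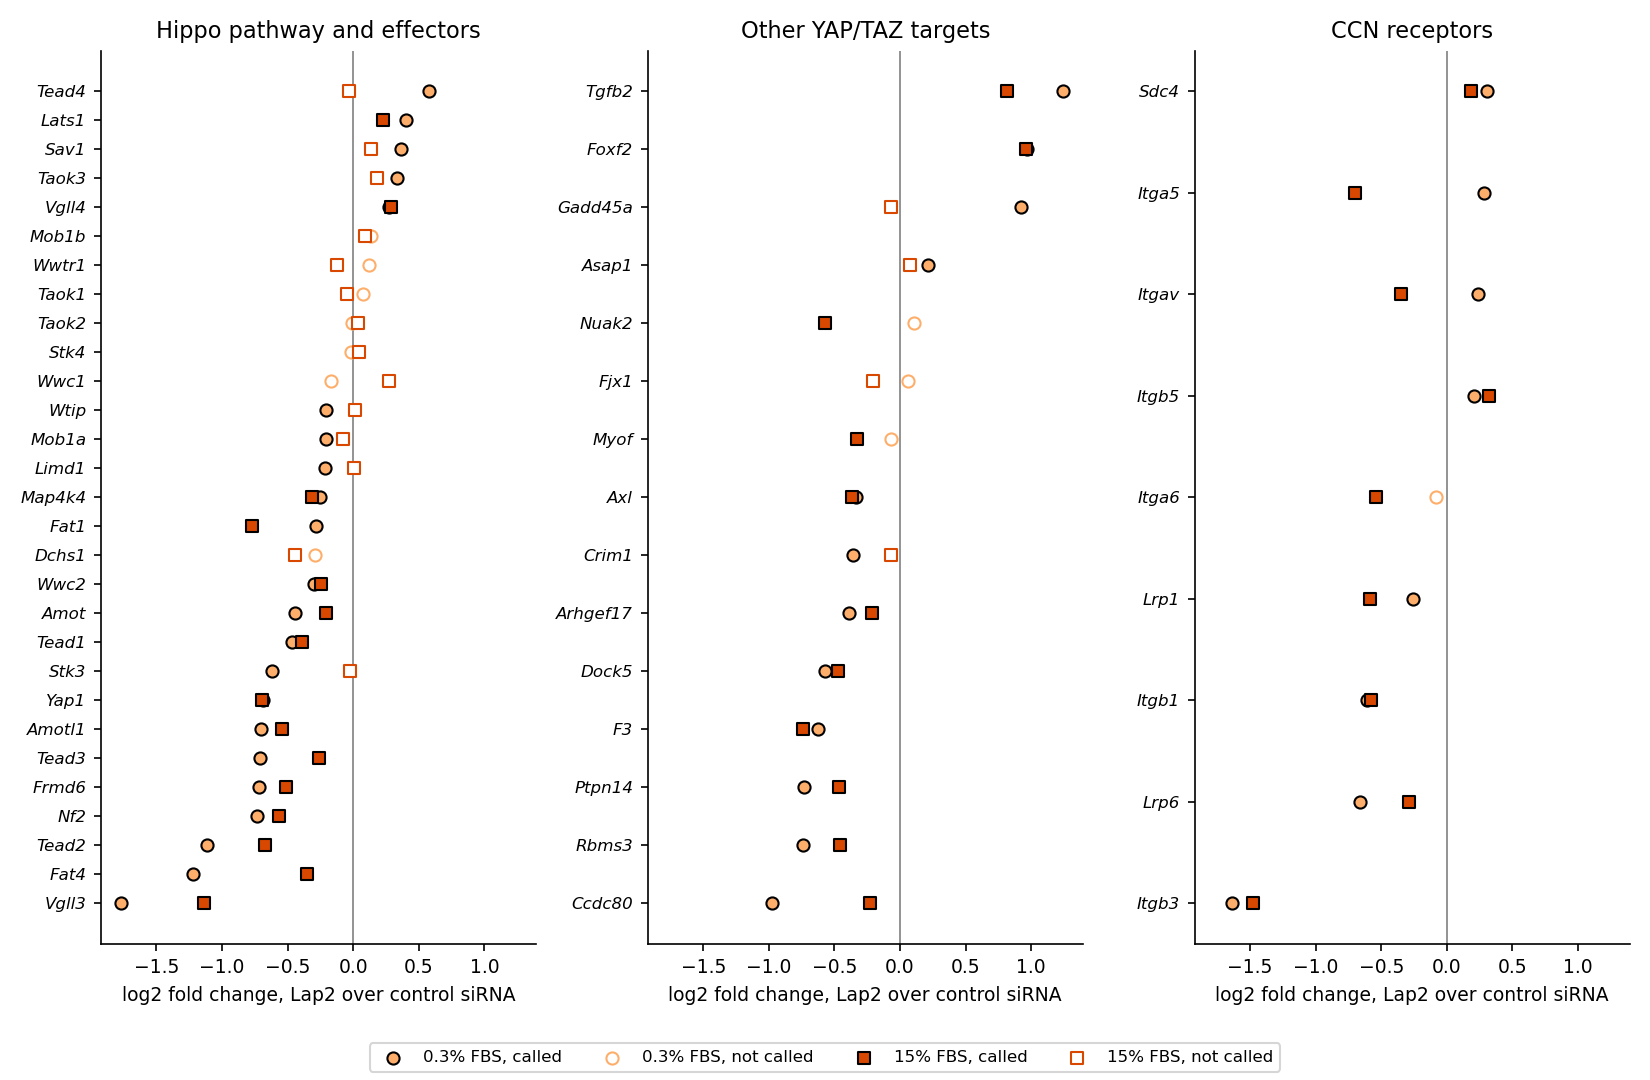
Log2 fold change of Lap2 siRNA over control siRNA for each tested gene of the Hippo pathway, further YAP and TAZ targets and CCN receptors, as circles in 0.3% FBS and squares in 15% FBS; filled symbols were called at an adjusted p under 0.05. Most called Hippo genes lie below 0 in both conditions (17 and 13 of 29 lower), and Tgfb2 and Foxf2 stand above 0 among the targets.

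Fibroblast markers moved with the siRNA and with serum. Their summed level had medians of 886094 and 962321 normalized counts in starved and stimulated control cells and of 627921 and 711551 in Lap2-depleted cells. The sums did not overlap between the siRNAs, nor between starved and stimulated cells with either siRNA. With Lap2 siRNA 7 of the 10 markers were lower and 2 (Fn1 and S100a4) higher in 0.3% FBS. In 15% FBS 8 were lower and none higher, beside 18.6% and 12.1% of all genes lower in these contrasts. Serum raised 3 markers and lowered 2 with control siRNA (29.5% of all genes called). With Lap2 siRNA it raised 6 and lowered 3 (33.2% of all genes called). The summed adipocyte markers ranged from 2.75 to 5.15 normalized counts in starved and from 0 to 5.797 in stimulated Lap2-depleted cells, against 0 to 1.96 in starved and 0 to 0.989 in stimulated control cells, so that the stimulated groups overlapped, with Fabp4 the most abundant at no more than 6 counts and Plin1 at 0. The summed endothelial markers were lower with Lap2 siRNA, at 8.26 to 14.4 normalized counts against 20.6 to 24.8 in 0.3% FBS and at 11.7 to 20.3 against 24.5 to 37.6 in 15% FBS, with Tek and Pecam1 the most abundant. The summed epithelial markers were lower in 0.3% FBS, at 19.3 to 21.8 against 25.9 to 37.3, and overlapped in 15% FBS, at 13.8 to 24.3 against 16.8 to 24.0, with Krt14 and Cdh1 the most abundant. These sums rest on few reads, with at most 19 counts for any endothelial and 27 for any epithelial marker. For Lap2 siRNA in 0.3% FBS, no endothelial, epithelial or adipocyte marker was called. In 15% FBS the only call was 1 of 3 tested endothelial markers, lower. Leukocyte and skeletal muscle sums did not exceed 53.9 normalized counts in any library. The part of these marker changes in the results above was not tested. In bulk RNA, fewer cells with a transcript and less of it per cell cannot be told apart.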

How the data were processed

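RNA-seq of 12 libraries of NIH 3T3 cells was used. The deposited values are raw read counts for each gene. The authors aligned the reads to mm10 with TopHat2 and counted them with HTSeq; versions, annotation and strand setting are not given in the sources used here. Each library lists 49671 genes, 99.3% with a symbol in the reference tables, and no libraries held identical counts. Library totals were 18026298 to 26265253. Standard errors were about 0.1 (log2) for the abundant genes and include the spread between libraries. The 3 libraries per group limit exact tests to p = 0.1.

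Groups were taken from the labels and the 45 min from the study's description. The fit used edgeR 4.0.16 in R 4.3.3 (TMM, glmQLFit, glmQLFTest, 1 mean per group over 12 libraries, no block) on the 18668 genes that had a count above 1 in 3 or more libraries, with Benjamini-Hochberg adjustment over all of them. Counts were simulated for Lap2 siRNA in 15% FBS (18668 genes, 200 changed by a log2 fold change of 1). Of the changed genes 94% were called, as were 11 others. This share was not split by expression level, so it does not give the recovery for scarce genes such as Ccn3. In the data 4375 genes were called in this contrast, far more than were changed in the simulation. In the edgeR fits, a standard error was the absolute log2 fold change divided by the square root of the test's F statistic. Exon lengths came from GENCODE M21, promoters from RefSeq (GRCm38.p6). Figures used matplotlib 3.10.9. Alternatives were DESeq2 1.42.0, 2 other scalings, 3 other filters, fits of the compared groups, a replicate block and each library left out.

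The 9 genes, lists and tests were chosen with earlier results of these data known. Named list genes are, per list and contrast, the 3 called genes with the largest change among those whose mean reached 100 normalized counts; Yap1, Wwtr1, the Tead genes and others shown for their role were chosen after their values were seen.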

Additional observations from a re-analysis of the deposited data

Results flagged for a closer look

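The serum response differed between control and Lap2 siRNA for 19 genes among the 9 followed, their further targets, the Hippo pathway and the CCN receptors. The test was edgeR's interaction test with an adjusted p under 0.05 over all genes, where 13.6% of all genes were called. With the stricter filterByExpr filter on low counts, 19.1% of genes were called. The values below are the response with Lap2 siRNA minus that with control siRNA, in log2 units. Among the 9 genes the differences were -4.19 for Ccn2, -2.01 for Ccn1, -1.69 for Ankrd1 and 0.82 for Ccn4. Among the further targets they were -0.99 for Gadd45a, -0.68 for Nuak2 and 0.75 for Ccdc80. In the Hippo pathway the response was larger with Lap2 siRNA for Fat4 (0.87), Vgll3 (0.63), Stk3 (0.60), Tead3 (0.45) and Tead2 (0.44) and smaller for Tead4 (-0.61) and Fat1 (-0.48). Among the receptors it was smaller for Itga5 (-0.98), Itgav (-0.58), Itga6 (-0.46) and Lrp1 (-0.32) and larger for Lrp6 (0.37). These were 5 of 9 receptors tested, and 3 of 9 without replicate 2 of the starved control cells or of the stimulated Lap2-depleted cells, where 10.9% and 10.8% of all genes were called. No group had more than 3 libraries, so single libraries were not tested as outliers.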

How the results depend on the processing

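The number of the 9 genes called and of all genes called in each contrast stayed within 1.5 times its reported value under every alternative. These were 198 values, counting both numbers for each contrast and alternative. For single genes among the 9, 863 values kept their direction and their side of the threshold, 13 became called, 10 lost their call and 5 changed sign. With libraries scaled to total counts the values that changed sign were Ccn5 on stimulation with control siRNA (-0.12) and with Lap2 siRNA (-0.035), Ajuba on stimulation with Lap2 siRNA (-0.094) and Lats2 for Lap2 siRNA in 15% FBS (0.036). With upper-quartile scaling Ccn5 on stimulation with control siRNA gave -0.012. None of these was called under either setting. Scaling to total counts moved the median log2 fold change of all genes to -0.21 and -0.23 for the serum responses with control and Lap2 siRNA and to 0.12 and 0.10 for Lap2 siRNA in 0.3% and 15% FBS, and upper-quartile scaling moved the serum medians to -0.10 and -0.11. The split of all called genes, 2915 higher and 2597 lower for serum with control siRNA, became 1632 and 5847 with total counts and 2183 and 3878 with upper quartiles. With Lap2 siRNA, 3420 and 2777 became 1658 and 5951, and 2383 and 3942. For Lap2 siRNA with total counts, 3330 and 3480 in 0.3% FBS became 4692 and 2638, and 2125 and 2250 in 15% FBS became 3471 and 1678. The genes that gained a call were Lats2 and Ccn3, under scaling, filter, replicate block or left-out libraries. Those that lost one were Ccn4 in 15% FBS and Ajuba on stimulation. The cause was not tested.

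The replicate numbers are shared by the groups, but the deviations of libraries with the same number correlated at -0.12 to 0.099, so the numbers were not taken as pairs. With the replicate block, the call of 1 gene changed, Ccn3 on stimulation with Lap2 siRNA (-0.86, adjusted p = 0.045 by edgeR), and the number of all genes called moved from 5512 to 5509 and from 6197 to 6121 for the serum responses with control and Lap2 siRNA, from 6810 to 6756 and from 4375 to 4343 for Lap2 siRNA in 0.3% and 15% FBS, and from 2540 to 2553 for the difference between the serum responses. With lengths from the longest transcript the ratio of Ccn2 to Ccn1 was 1.02 and 1.78 in starved and 0.715 and 0.273 in stimulated cells, with control and Lap2 siRNA in that order. The count of receptors whose serum response differed was 5 of 9 tested (13.6% of all genes), and 3 of 9 without replicate 2 of the starved control cells (10.9%) or of the stimulated Lap2-depleted cells (10.8%).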
